A study of Mus musculus with 4 samples.

Results

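Genes of glycolysis and of the hypoxia-inducible factor (HIF) pathway, 37 in number, were measured in mouse mesenchymal stromal cells after depletion of Islr, the gene of the secreted and cell surface protein Meflin. They were listed by their known roles as 2 transporters of glucose and lactate, 16 glycolytic enzymes, 3 regulators of glycolytic flux, 6 HIF regulators and 10 other HIF targets. All 37, found through RefSeq accessions, are among the 13567 genes tested, of 21154 genes that could be named. A gene with several probes is given by the probe that was brightest on average. Signals of 36 members passed the background call on every array. Mxi1 passed it in shControl alone, and so entered the test only through the side on which it is high.

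The study compared 4 one-colour Agilent arrays of mesenchymal stromal cells (MSCs) that were taken from mice, grown to passage 5 and all made to carry a retroviral short hairpin RNA. The group shControl was 1 array with a control hairpin, and the group shIslr was 3 arrays, each with a hairpin against another target sequence in Islr (hairpins 1, 2 and 3). The tissue, strain, age and sex of the source animals and the oxygen level of the cultures are not given in the sources used here. Nothing says whether the cultures came from separate MSC preparations, so the p-values measure only the spread between these samples, which may be technical.

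Glycolysis splits glucose into pyruvate, and in cultured cells much of the pyruvate leaves as lactate. HIF is a transcription factor of an oxygen-labile alpha subunit (HIF1A, or EPAS1, also called HIF2A) and a stable partner. In normal oxygen the prolyl hydroxylases of the Egln family mark the alpha subunit, and the VHL ubiquitin ligase then directs it to degradation; in low oxygen it escapes and binds DNA elements with the core ACGTG or GCGTG. Its targets include most glycolytic enzymes, the glucose importer Slc2a1, mitophagy receptors, carbonic anhydrases and the hydroxylases Egln1 and Egln3 themselves. In bone marrow, such stromal cells live at low oxygen.

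Signals are given here on 1 scale, the processed signal times a factor that brings the 75th percentile of each array to that of the control array (442). The control array is called by its group name, shControl. A difference is log2, hairpin array minus control array, and a group value is the mean ± SD over the 3 hairpins (n = 3). Between 49.4% and 53.8% of features were above background on an array, and none was saturated. All 3 differences of a gene share the single control array, so the SD over hairpins holds none of the error of that array. Islr had a scaled signal of 454 in shControl and of 11.7, 71.6 and 3.51 with hairpins 1 to 3, where those on hairpins 1 and 3 were not above background; this is at least 20.5-fold lower, 6.33-fold lower and at least 29.6-fold lower (limma adjusted p over the 3 hairpins = 0.964). All 12 stromal markers looked up were above background on all 4 arrays, and their summed signal was 531947 in shControl and between 477002 and 532211 on the hairpin arrays. The sum is set mostly by the brightest markers. The mean differences of single stromal markers ran from -0.81 to 1.12, so they went both ways. Of 10 haematopoietic markers, Cd68, Itgam, Cd14 and Csf1r were above background on all 4 arrays and the other 6, with Ptprc and Adgre1, on none; their summed signal was 11805 in shControl and 12621, 10498 and 7991 with hairpins 1 to 3. Of 8 endothelial markers, Pecam1 and Kdr were above background on all 4 arrays and Cdh5, Tek, Emcn and Tie1 on none, with sums of 3660 in shControl and 3413 to 3724 on the hairpin arrays. Whether other cells had a part in the differences below was not tested, and in bulk RNA fewer cells of a type and less RNA per cell cannot be told apart.

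Promoters of 6 members are shown because they carry, or lack, the HIF core in genes whose signal differed from the control array in 1 direction on all 3 hairpins; they were chosen after the values were seen. Each run is the 250 bases before the most upstream transcript start, from RefSeq (GRCm38.p6), 5′ to 3′ on the strand of the gene, with each match to ACGTG or GCGTG on either strand in capitals (CACGT and CACGC are the same cores on the other strand). The runs lie at chrX:106186850-106187099, plus strand (Pgk1), chr7:46845554-46845803, plus strand (Ldha), chr6:82774455-82774704, minus strand (Hk2), chr8:45999851-46000100, minus strand (Ankrd37), chr12:54203875-54204124, minus strand (Egln3) and chr9:66713436-66713685, plus strand (Car12).
Pgk1: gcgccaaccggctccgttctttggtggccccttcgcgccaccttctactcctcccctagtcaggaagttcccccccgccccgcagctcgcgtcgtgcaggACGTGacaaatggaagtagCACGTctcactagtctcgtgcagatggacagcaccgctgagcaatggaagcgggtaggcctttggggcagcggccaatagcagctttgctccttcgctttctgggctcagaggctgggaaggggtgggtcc
Ldha: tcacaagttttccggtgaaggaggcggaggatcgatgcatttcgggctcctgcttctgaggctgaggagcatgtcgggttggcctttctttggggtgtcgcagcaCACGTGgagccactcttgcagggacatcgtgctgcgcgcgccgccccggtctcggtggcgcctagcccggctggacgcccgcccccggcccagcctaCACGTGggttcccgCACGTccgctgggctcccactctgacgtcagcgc
Hk2: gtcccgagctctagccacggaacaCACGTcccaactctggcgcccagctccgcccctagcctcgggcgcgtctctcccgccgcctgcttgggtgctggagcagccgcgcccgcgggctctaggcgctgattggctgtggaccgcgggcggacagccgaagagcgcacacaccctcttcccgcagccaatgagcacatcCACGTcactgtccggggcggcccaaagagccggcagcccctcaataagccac
Ankrd37: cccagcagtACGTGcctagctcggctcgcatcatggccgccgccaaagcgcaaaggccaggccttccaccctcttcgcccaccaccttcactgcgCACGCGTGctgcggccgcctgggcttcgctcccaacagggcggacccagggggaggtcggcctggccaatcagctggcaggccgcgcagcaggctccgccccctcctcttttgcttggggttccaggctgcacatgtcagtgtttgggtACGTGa
Egln3: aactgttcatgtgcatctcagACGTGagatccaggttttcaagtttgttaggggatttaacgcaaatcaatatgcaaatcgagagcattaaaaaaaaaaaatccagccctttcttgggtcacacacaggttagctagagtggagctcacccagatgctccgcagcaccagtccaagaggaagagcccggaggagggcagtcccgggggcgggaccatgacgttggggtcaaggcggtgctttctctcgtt
Car12: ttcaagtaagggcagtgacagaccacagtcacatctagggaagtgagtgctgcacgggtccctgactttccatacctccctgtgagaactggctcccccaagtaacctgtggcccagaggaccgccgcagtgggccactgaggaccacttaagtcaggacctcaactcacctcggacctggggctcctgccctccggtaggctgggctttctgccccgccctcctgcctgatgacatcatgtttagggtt

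Pgk1, a phosphoglycerate kinase gene with a well studied hypoxia response element, has ACGTG at 150 and, on the other strand, at 131 bases before its start. Ldha has 5 matches, of which 4 are the paired strands of the palindrome CACGTG, which is also the E-box bound by other factors. Ankrd37 has ACGTG at 241 and at 6 bases before its start and a pair of overlapping GCGTG matches between them. The single match of Egln3 lies at 229, and Car12 has none. The promoters shown do not stand for the other members. Aldoa, Tpi1 and Pkm, with the control array below every hairpin, held neither core. Where the control array lay above every hairpin, Pfkm held ACGTG, and Eno2 and Mxi1 held neither core. Whether a core goes with the direction of a difference was not tested. Of the 37 members, 34 had a promoter in the table (not Epas1, Bnip3l and Ndrg1). Of these 34, 16 held ACGTG (47.1%) and 16 held GCGTG (47.1%), and 25 held at least 1 of both (73.5%). Over the 10782 genes tested on the arrays that have a promoter in the table, 21.1% held ACGTG, 43.6% GCGTG and 54.6% at least 1, and over all 27025 promoters 16.5%, 28.3% and 38.6%. The GC content was alike in members and in genes tested, with medians of 59.4% and 59.2%. ACGTG was in 5 of 16 glycolytic enzyme genes, in 4 of 5 HIF regulators and in 4 of 8 other targets. A match is a run of letters and does not show binding. A missing match does not show that a gene lacks a HIF element. Only 250 bases before 1 start of each gene were read, and some members have several listed starts (4 for Pfkm).

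The comparison asked how the glycolysis and HIF genes differ when Islr is depleted. Most glycolytic enzyme genes had a somewhat higher signal on the hairpin arrays, with a median of 1.13-fold, while HIF regulators and other targets went both ways. The median difference was 0.18 in the 16 glycolytic enzymes, 0.01 in the 6 HIF regulators and 0.01 in the 10 other targets. It was 0.12 over all 37, against 0.01 over all genes tested. Over the 7996 genes at or above the 75th percentile on all 4 arrays, the median was 0.04. Of the 16 glycolytic enzymes, 15 were as bright as that. Without Mxi1, which was not above background on the hairpin arrays, the median of the other targets was 0.10 over 9 genes. On hairpins 1, 2 and 3 the glycolytic median was 0.14, 0.24 and 0.19, that of HIF regulators 0.09, -0.004 and 0.12, and that of other targets -0.003, -0.004 and 0.20. The median of the 7996 bright genes was 0.01, 0.03 and 0.10 on the same hairpins, and that of all genes tested -0.006, 0.002 and 0.05. By limma with Benjamini-Hochberg adjustment over all genes, 1 of 37 members passed, Mxi1, which was lower, against 0.346% of all genes tested. At an unadjusted p under 0.05 there were 4 members (Egln1, Ankrd37, Car12 and Mxi1; 10.8%), against 4.83% of all genes tested. Mxi1 entered the test only through the control array, on which it was high, so both shares of members count a gene admitted by that side. Among genes above background on all 4 arrays, limma called 0 of 36 members and 0 of 12716 genes. At an unadjusted p under 0.05 the counts there were 3 of 36 and 388 of 12716. The smallest adjusted p among the 36 members other than Mxi1 was that of Car12 (0.362), and every other member was at 0.91 or above.

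The control array lay below all 3 hairpins in 18 of 37 members (48.6%), against 27.6% of all genes tested, and above all 3 in 5 members (13.5%), against 24.6%. With the series table values as deposited, which differ by 1 factor per array, the counts were 15 (40.5%) and 8 (21.6%), against 24% and 28.5% of all genes tested under the same values. Of the 28 members at or above the 75th percentile on all 4 arrays, the control array was below in 14 (50%) and above in 3 (10.7%), against 32% and 20.2% of the 7996 genes as bright. Glycolytic enzymes made up 11 of the 18. In the other 14 members the control array lay within the range of the hairpins. The mean difference exceeded 2 SD in size in 16 of 37 members (43.2%), against 22.2% of all genes tested. This share was not computed over the bright genes alone, whose SD was smaller (median 0.171, against 0.2 over all genes tested). The SD also holds none of the error of the control array. These counts describe the lists; whether the members differ from other genes was not tested.

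**Figure D1:**
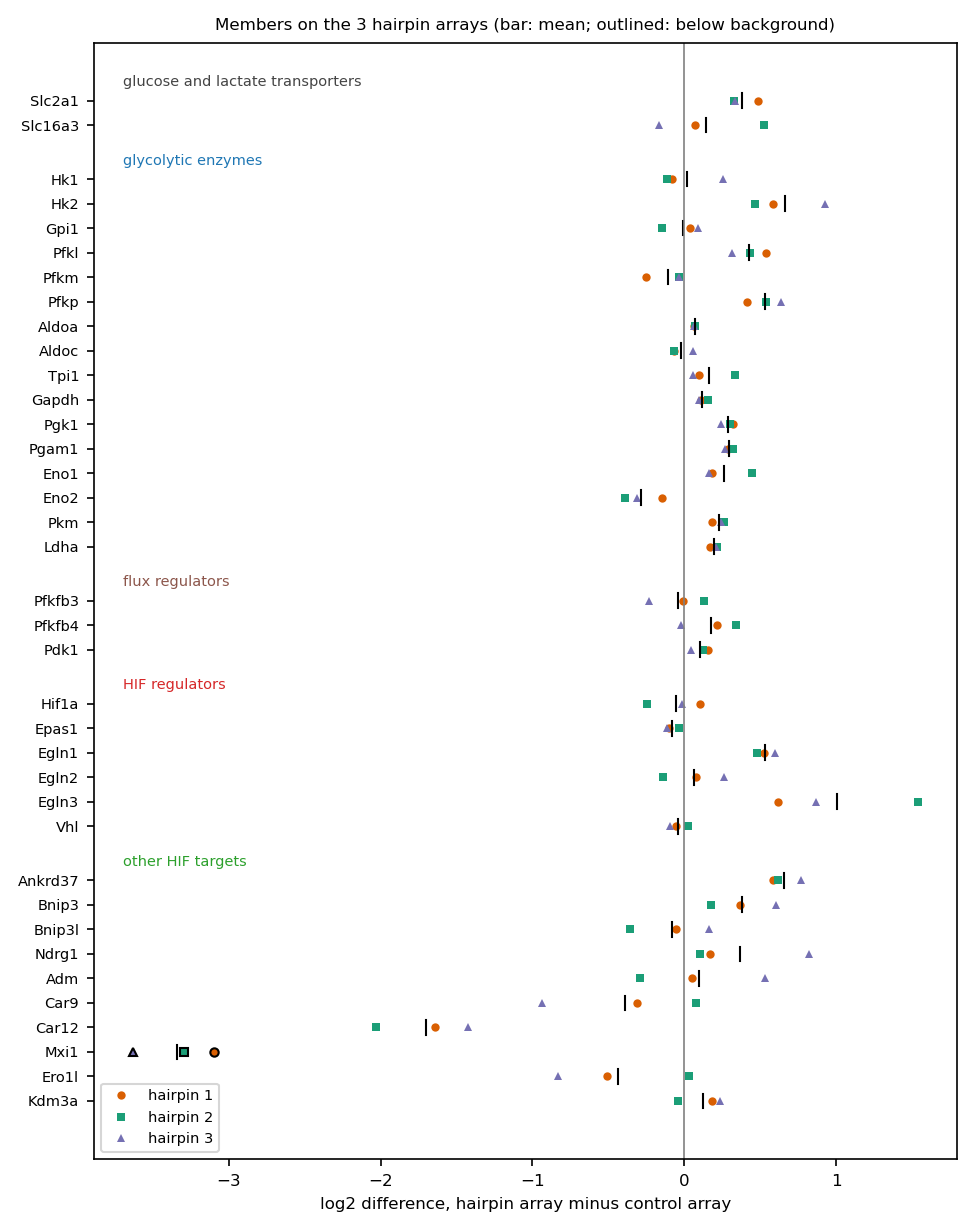
Log2 difference from the control array (x axis) of each of the 37 genes (y axis, by role), with 1 symbol for each hairpin and a bar at the mean. Most glycolytic enzymes sit between 0 and 0.5, Egln3 reaches 1.54 on hairpin 2, and Car12 and Mxi1 lie far to the left, Mxi1 with outlined symbols because it was below background on the hairpin arrays.

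**Figure D2:**
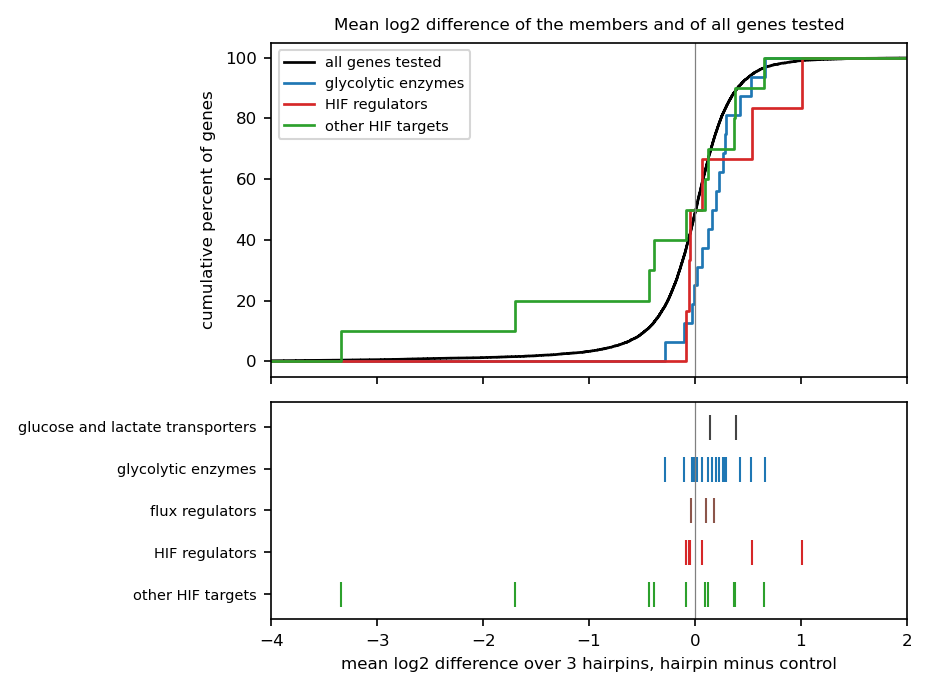
Upper panel: cumulative percent of genes (y axis) by mean log2 difference over the 3 hairpins (x axis, -4 to 2) for all 13567 genes tested and for 3 groups of members. Lower panel: 1 tick per member. The glycolytic enzyme curve lies to the right of that of all genes over most of its length, with medians of 0.18 and 0.01. Other HIF targets above background on all 4 arrays spread from -1.70 to 0.66. The tick at -3.34 is Mxi1, which was below background on the hairpin arrays. Against the lowest signal called above background on each array, Mxi1 was at least 2.22-fold lower, but that signal is not the limit of its probe.

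Transport came first in the order of the pathway. Slc2a1, the GLUT1 glucose importer and a classical HIF target, had a signal of 5637 in shControl and of 7913, 7066 and 7118 with hairpins 1 to 3. The control array was the lowest of the 4, and the hairpin arrays lay close together, at 0.38 ± 0.09 (1.31-fold, limma adjusted p = 0.964). Slc16a3, the MCT4 lactate exporter, had 2633 in shControl and 2765, 3784 and 2349 on the hairpins. Only hairpin 2 stood clearly above the control array there, and the mean of 0.14 ± 0.35 was smaller than the spread.

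Hexokinases trap glucose in the cell, and the ubiquitous Hk1 and the inducible Hk2 differed in their values. Hk2 had a signal of 1172 in shControl and 1762, 1621 and 2227 with hairpins 1 to 3, all above the control, at 0.66 ± 0.24 (1.58-fold, limma unadjusted p = 0.0556, adjusted p = 0.964). Hk1 had 11689 in shControl and 11047, 10808 and 13981 on the hairpins, so that the control array lay within their range (0.02 ± 0.21). Gpi1, the next enzyme, an isomerase, likewise went both ways (-0.01 ± 0.13).

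Phosphofructokinase commits sugar to glycolysis, and its 3 subunit genes did not all lie on the same side of the control array. The liver type Pfkl had 2033 in shControl and 2956, 2751 and 2528 on the hairpins (0.43 ± 0.11). For the platelet type Pfkp the control array had 299 and the hairpins 399, 435 and 466 (0.53 ± 0.11, limma unadjusted p = 0.0502, adjusted p = 0.964). In both genes all 3 hairpins lay above the control array by more than the spread between hairpins. The dimmer probe of Pfkp went the other way, with 65.8 in shControl and 52.7, 55.4 and 51.2 on the hairpins (-0.31 ± 0.06), so the direction of Pfkp depends on the probe. The muscle type Pfkm had 3568 in shControl and 2994, 3493 and 3493 with hairpins 1 to 3 (-0.11 ± 0.13), which is a lower value on hairpin 1 and nearly the control value on the other two.

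Pfkm was spotted 10 times on each array and so shows the error of a spot. Its 10 copies had an SD of 0.044 to 0.046 (log2) within an array. On the control array they ran from 3423 to 3771 and on hairpin 1 from 2844 to 3131, so those ranges did not overlap. Over 244 probes with repeated spots and signal above background on all 4 arrays, the median SD was 0.062 to 0.067. Differences under about that size cannot be read in members with 1 spot, and spots of 1 array share its RNA and labelling. It is the SD of a spot and not of a difference between arrays, so larger differences are not thereby readable.

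Aldolase and triosephosphate isomerase make the triose phosphates. Aldoa had a signal of 141907 in shControl and 148641, 149258 and 148617 on the hairpins, a difference of 0.07 that is near the spot error. Aldoc went both ways (-0.02 ± 0.07), and Tpi1 was at 0.16 ± 0.15, with 0.33 on hairpin 2. None of these 3 genes differed by much more than its spread or the spot error.

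The payoff phase, from triose phosphate to lactate, came next. Pgk1, which makes the first ATP of the phase, had 71470 in shControl and 89216, 88109 and 84658 with hairpins 1 to 3 (0.29 ± 0.04, 1.22-fold). Pgam1, the mutase that follows, had 58981 and then 72109, 73651 and 71222 (0.29 ± 0.02, 1.23-fold). The 3 hairpin arrays lay within a narrow band above the control array in both genes. Pkm, the pyruvate kinase gene, was at 0.23 ± 0.04, and Eno1, the main enolase gene, at 0.27 ± 0.16 with its highest value on hairpin 2 (97514, against 71417 in shControl). Ldha, which turns pyruvate to lactate, had 145531 in shControl and 163624, 169177 and 168268 on the hairpins (0.20 ± 0.03, 1.15-fold), and Gapdh was at 0.12 ± 0.03.

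These 6 genes had the control array below all 3 hairpins, and none passed limma (adjusted p = 0.964 or above). The neuronal type enolase Eno2, also a HIF target in many cells, was on the other side, with 2733 in shControl and 2466, 2088 and 2205 on the hairpins (-0.28 ± 0.12). Eno1 and Eno2 thus lay on opposite sides of the control array on each hairpin.

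**Figure D3:**
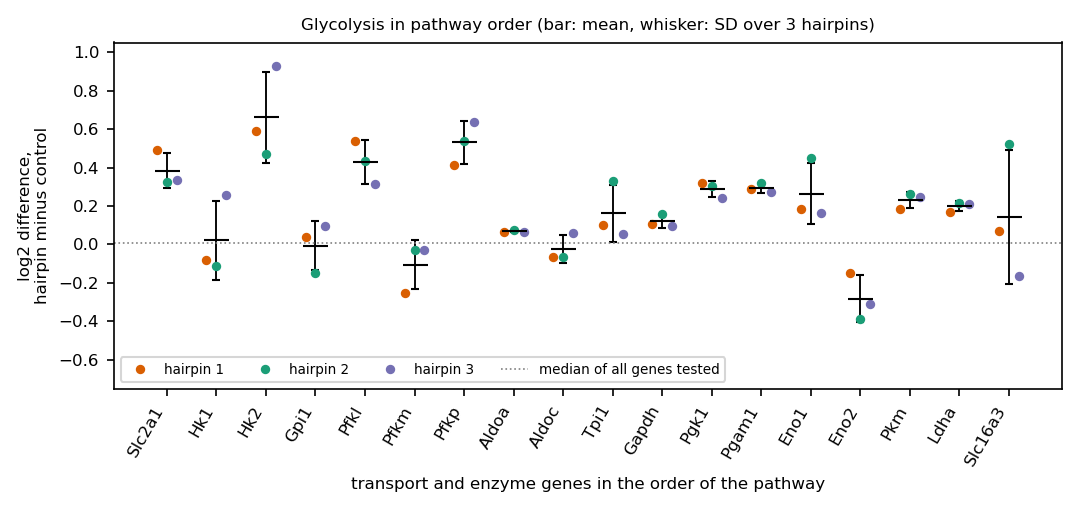
Log2 difference from the control array (y axis) of the transporter and enzyme genes in pathway order (x axis), with a point per hairpin, a bar at the mean and whiskers of 1 SD over the 3 hairpins; the dotted line is the median of all genes tested (0.01). From Gapdh to Ldha the points lie between 0.10 and 0.45 with the exception of Eno2, and Hk2 stands highest at 0.66.

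Flux regulators showed small values. Pfkfb3 and Pfkfb4 set the level of fructose-2,6-bisphosphate, the activator of phosphofructokinase, and Pdk1 keeps pyruvate out of the mitochondrial cycle. Pdk1 had 691 in shControl and 770, 752 and 713 with hairpins 1 to 3 (0.11 ± 0.06). Pfkfb3 (-0.04 ± 0.18) and Pfkfb4 (0.18 ± 0.18) had the control array within the range of the hairpins. The difference of highest size among these 3 genes was 0.34, that of Pfkfb4 with hairpin 2.

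Among the HIF regulators, the genes of the alpha subunits had small differences at their brightest probes. Hif1a had 3015 in shControl and 3240, 2541 and 2982 on the hairpins (-0.05 ± 0.18), on both sides of the control. Epas1 had 4026 and then 3761, 3938 and 3719 (-0.08 ± 0.04). A dimmer probe of Epas1 had 198 in shControl and 66.8, 197 and 155 with hairpins 1 to 3, so that hairpin 1 was by far the lowest, where the bright probe showed -0.10. Vhl, the substrate receptor of the ubiquitin ligase, was at -0.04 ± 0.06. The mRNA level of these genes does not report the amount of HIF protein, which is set by its degradation and was not measured.

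The 3 prolyl hydroxylase genes differed from each other. Egln3, which HIF itself induces in many cells, had a signal of 47.5 in shControl and 72.8, 138 and 86.7 with hairpins 1 to 3. All 3 hairpins lay above the control array, hairpin 2 farthest, at 1.01 ± 0.48 (2.01-fold, limma unadjusted p = 0.0635, adjusted p = 0.964). A second probe of Egln3 had 30.3 in shControl and 43.2, 139 and 68.0 on the hairpins (1.29 ± 0.85), in the same order. By its brighter probe, Egln3 was the 1 member at least 1.5-fold higher on all 3 hairpins (2.7% of members, against 0.958% of all genes tested). The second probe was under 1.5-fold on hairpin 1 (0.51), as was Egln3 there with the mean over its probes and with normexp.

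Egln1, the main HIF hydroxylase and likewise a HIF target, had 77.7 in shControl and 112, 108 and 118 on the hairpins (0.53 ± 0.06, 1.45-fold, limma unadjusted p = 0.0391, adjusted p = 0.964). The hairpin arrays were close together and clear of the control array. Egln2, which is not known as a hypoxia-induced gene, had 13019 in shControl and 13713, 11798 and 15589 on the hairpins, on both sides of the control (0.06 ± 0.20). Egln1 and Egln3 lay below the 75th percentile of every array and Egln2 above it.

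Other HIF targets fell into genes above, below and around the control array. Ankrd37, a small ankyrin repeat protein gene, had 334 in shControl and 501, 512 and 569 with hairpins 1 to 3 (0.66 ± 0.10, 1.58-fold, limma unadjusted p = 0.0238, adjusted p = 0.91). The hairpin values were within a narrow band, well apart from the control. Bnip3, a mitophagy receptor gene, had 15294 and then 19692, 17250 and 23218 (0.38 ± 0.22), and its 3 probes gave means of 0.38 to 0.39. Its relative Bnip3l had 15327 in shControl and 14754, 11965 and 17172 on the hairpins, on both sides of the control (-0.08 ± 0.26).

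Ndrg1, a stress-responsive gene, had 8590 in shControl and 9669, 9223 and 15194 with hairpins 1 to 3. Its mean of 0.37 ± 0.40 came mostly from hairpin 3 (0.82), and without that hairpin it was 0.14. Adm, the gene of the vasodilator peptide adrenomedullin, was also highest on hairpin 3 (157, against 108 in shControl) but below the control on hairpin 2 (88.4). The histone demethylase gene Kdm3a went both ways (0.13 ± 0.15).

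Car12, a membrane carbonic anhydrase gene, had the largest difference among members above background on all 4 arrays. Its signal was 896 in shControl and 288, 219 and 333 with hairpins 1 to 3, a difference of -1.70 ± 0.31 (3.25-fold lower, limma unadjusted p = 0.00331, adjusted p = 0.362). The hairpin arrays were far from shControl relative to their own spread, which holds none of the error of the single control array. The adjusted p of Car12 depends on which other genes are tested. It was 0.98 by limma, with the same difference, when only probes above background on all 4 arrays were kept. Car9, the other carbonic anhydrase here and one of the most HIF-dependent genes known, had 70.1 in shControl and 56.5, 74.0 and 36.7 on the hairpins (-0.39 ± 0.51), so its control value lay within their range. Ero1l, the gene of an oxidase of the endoplasmic reticulum (Ero1a in RefSeq), had 201 in shControl and 141, 205 and 113 on the hairpins (-0.44 ± 0.44), with hairpin 2 at the control level.

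Mxi1, a repressor that competes with MYC for its partner MAX, had a signal of 41.6 in shControl and 4.86, 4.23 and 3.36 with hairpins 1 to 3, none of these above background. Against the lowest signal called above background on each array, it was at least 2.22-fold lower (measured means of -3.41 in shControl and -6.75 on the hairpins, log2 of signal over the 75th percentile; limma adjusted p = 0.0425). The array's lowest called signal is not the limit of this probe, so the true difference may be smaller than 2.22-fold. All 47 genes that limma called were lower, and none of them was above background on all 4 arrays. The call of Mxi1 was lost in 8 of 12 other settings (limma adjusted p over the 12 from 0.0104 to 0.72), among them each hairpin left out, where it was 0.0808 to 0.162. The measured difference was between -3.20 and -3.47 with a hairpin left out, and -0.79 with normexp background correction.

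**Figure D4:**
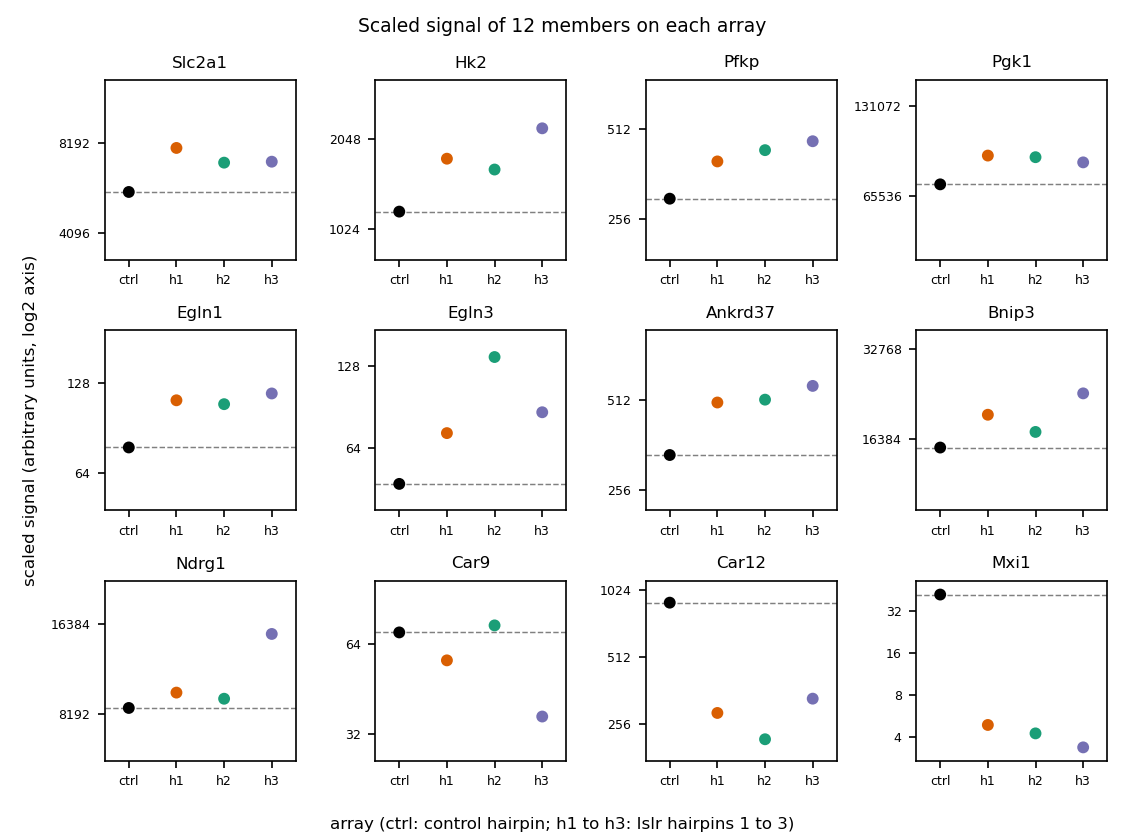
Scaled signal (y axis, log2 axis, each panel with its own range) of 12 members on the control array (ctrl) and hairpins 1 to 3 (h1 to h3); the dashed line is the control value. In Slc2a1, Hk2, Pfkp, Pgk1, Egln1, Egln3, Ankrd37, Bnip3 and Ndrg1 all hairpin points lie above the line, in Car12 and Mxi1 all lie below it, and in Car9 they lie on both sides; Mxi1 is below background on h1 to h3.

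Hairpin 3 held more members past 1.5-fold than the other hairpins. On hairpin 3, 7 members were at least 1.5-fold higher (18.9%, against 9.68% of all genes tested): Hk2, Pfkp, Egln1, Egln3, Ankrd37, Bnip3 and Ndrg1. On hairpins 1 and 2 it was 2 members each (5.41%, against 4.05% and 7.28%), Hk2 and Egln3 on hairpin 1 and Egln3 and Ankrd37 on hairpin 2. Car12 and Mxi1 were at least 1.5-fold lower on each hairpin, joined on hairpin 3 by Car9 and Ero1l (10.8% of members there, against 11.4% of all genes tested, and 5.41% on hairpins 1 and 2, against 8.38% and 9.35%). Car12 and Mxi1 were the members at least 1.5-fold lower on all 3 (5.41%, against 3.04%). As the background shares show, hairpin 3 had more genes past 1.5-fold over the whole array too.

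Of the 37 members, 14 had several probes, and in 12 of these at least 2 probes were above background on all 4 arrays. All 7 probes of Gapdh had the control array below all 3 hairpins. The brightest, which stood for the gene, had the smallest difference (0.12 ± 0.03), and in order of falling signal the others were at 0.21, 0.28, 0.305, 0.31, 0.39 and 0.38. Ldha likewise had its smallest difference, 0.20, at its brightest probe, with 0.38 and 0.37 at the other two. Tpi1 was at 0.16 and 0.22. With the mean over the probes of a gene, Gapdh was at 0.28, Ldha at 0.32, Pfkp at 0.11 and Epas1 at -0.36. Probes of a gene disagreed in sign in Gpi1, Egln2 and Pfkp, by amounts within the spread between hairpins in Gpi1 and Egln2.

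**Figure D5:**
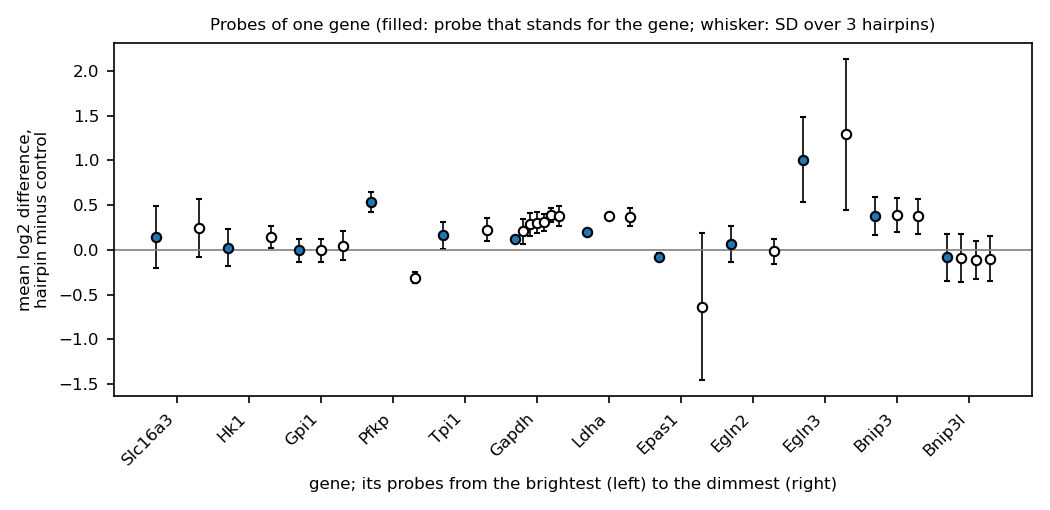
Mean log2 difference over the 3 hairpins (y axis, whiskers of 1 SD) for each probe above background on all 4 arrays of the 12 members with several such probes (x axis, brightest probe leftmost within a gene; filled points stand for the gene). The probes of Bnip3 and Bnip3l lie level with each other, those of Gapdh and Ldha are lowest at the brightest probe, and those of Pfkp lie on both sides of 0.

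Other genes of the pathway, listed by role, gave the following values, and none passed limma. Of 33 further glycolysis and pyruvate genes, 23 could be tested; the control array lay below all 3 hairpins in 9 (39.1%) and above in 5 (21.7%), against 27.6% and 24.6% of all genes tested, with a median of 0.02. Pfkfb1, a further bifunctional phosphofructokinase regulator, was at 0.83 ± 0.37, the glucose importer gene Slc2a3 at 0.53 ± 0.13 and the lactate dehydrogenase gene Ldhb, the partner of Ldha, at -0.49 ± 0.30. Ldhb had 11384 in shControl and 8634, 9610 and 6417 on the hairpins, so that it lay on the other side of the control array from Ldha on each hairpin. Of 13 further HIF subunits and modifiers, 11 were tested, with 3 below (27.3%), 3 above (27.3%) and a median of 0.01; among them the ubiquitin ligase gene Siah1a was at -0.31 ± 0.05.

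Of 34 further HIF targets, 33 were tested, and the control array lay below all 3 hairpins in 15 (45.5%) and above in 6 (18.2%), against the same 27.6% and 24.6%, with a median of 0.02. Among the highest by the smallest of their 3 differences were the transferrin receptor gene Tfrc (0.66 ± 0.12), the collagen prolyl hydroxylase gene P4ha2 (0.57 ± 0.13) and the adenylate kinase gene Ak4 (0.82 ± 0.32). Lowest were Plod2 (-1.30 ± 0.58) and Lox (-1.13 ± 0.34), which modify and crosslink collagen, the nuclear receptor gene Rora (-0.71 ± 0.42) and the cyclin gene Ccng2 (-0.58 ± 0.37). Lox had 9062 in shControl and 4973, 4497 and 3179 on the hairpins, so both directions occurred among bright HIF targets. Adjusted p by limma was 0.847 for Lox, 0.945 for Tfrc and 0.964 for the rest of the genes named from these lists.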

How the data were processed

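Per the file headers, the authors read 4 one-colour (Cy3) arrays of design 028005 (build mm9) with version 11.5.1.1 of Agilent's Feature Extraction, protocol GE1_1105_Oct12. Each feature has a deposited processed intensity, linear, background-subtracted and detrended within the array. The deposited series table holds the same intensity times 1 factor per array, whose origin is not stated.

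Features of a probe (59305 features, 55681 probes) were averaged on the log2 scale, named by accession through a RefSeq table (28026 probes) and scaled by subtracting the log2 75th percentile of the array. The filter kept 17843 probes of 13567 genes that were well above background in shControl or with every hairpin; each gene took its brightest probe by mean signal. limma 3.58.1 in R 4.3.3 (lmFit, eBayes, two-sided, Benjamini-Hochberg, threshold 0.05) compared 3 hairpins with 1 control array, which is assumed to vary like the hairpins. The scripts were tested on simulated data with this design. There limma called 1 of 50 genes with a log2 change of 1 and 42 of 50 with a change of 2. It also called 12 unchanged genes. A member that did not pass is thus not shown to be unchanged. The number of arrays limits the precision.

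The members and lists were chosen with earlier results of these data known. Named were all members and Islr, and from 3 further pathway lists any gene that passed and, among genes above background on all 4 arrays, up to 6 highest and 6 lowest by the smallest of the 3 differences; 1 gene so chosen is not reported here. The normexp alternative (offset 50) used the median signal of each spot. Other settings were those listed in the closing section.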

Additional observations from a re-analysis of the deposited data

How the results depend on the processing

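The other settings were quantile normalization, median centring, the 75th percentile over detected probes, normexp and the series table values. Further ones were no filter, a stricter filter, the mean over probes, features with an outlier flag left out, and each hairpin left out. Each member value thus had 12 other settings (11 for Mxi1). The 23 members with the control array outside the range of the hairpins kept the sign of their mean in all of them. Of the other 14 members, 9 had the other sign under at least 1. For the 23, leaving out a hairpin could not change the sign, because their 3 differences share it. No filter, the stricter filter and leaving out flagged features gave the same member means as the report. All settings use the same single control array. The count of members passing limma, 1 in the report, was 0 with the 75th percentile over detected probes, normexp, the series table values, no filter, the filter on all 4 arrays, an intensity trend, and with each hairpin left out in turn (0 to 0). The median over all members was 0.085 with detected probes, 0.084 with normexp and 0.08 with the series table, and the median of all genes moved by at most -0.04. Members with the control array above all hairpins numbered 8 with the series table (21.6%, against 28.5% of all genes tested) and 6 to 9 with a hairpin left out (8 without hairpin 3, 9 without hairpin 2), where the share of all genes tested was 31.2% to 33%, against 24.6% with all 3 hairpins. Leaving out a hairpin gave medians of -0.025 to 0.106 in HIF regulators (highest without hairpin 2) and -0.119 to 0.132 in other HIF targets (lowest without hairpin 3, highest without hairpin 2), so the direction of the latter depends on the hairpin; the glycolytic median lay between 0.14 and 0.21 over all settings. Members at least 1.5-fold higher on hairpin 1 numbered 0 with normexp and 1 with the mean over probes. On hairpin 2 they numbered 1 with median centring, normexp or the series table. On hairpin 3 they numbered 4 with detected probes or the series table and 3 with normexp. Members at least 1.5-fold lower numbered 1 on hairpins 1 and 2 with the filter on all 4 arrays, which removes Mxi1, and 2 on hairpin 3 with normexp. Except where a filter or fewer arrays make the change, the cause was not tested. No paired analysis was possible because there is 1 control array for 3 hairpins. With normexp, Egln3 was at 0.55 and Egln1 at 0.32.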
